A study of Mus musculus with 18 samples.

Results

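The genes of the NRF2 oxidative stress response, of glutathione and of NADPH supply were followed across zone and feeding state in mouse hepatocytes through 10 members: Nfe2l2, Keap1, Nqo1, Gclc, Gclm, Txnrd1, Srxn1, Gsr, G6pdx and Pgd. They were taken as a list of symbols and matched by Ensembl identifier, and all 10 were found among the 28030 genes of the table. All 10 also passed the filter on low counts that left 12477 genes to test, so none was lost to that filter. RNA was sequenced from pericentral hepatocytes, which lie around the central vein where blood leaves the liver lobule, and from periportal hepatocytes, which lie where blood enters it. Per the labels, every library came from wild-type C57BL/6J male mice aged 12 weeks on normal chow, and the hepatocytes of a zone were obtained with digitonin, a detergent that opens cell membranes. All mice had 3 days of training to a 16 h overnight fast and 8 h of daytime feeding, and on the last day received food with 20% sucrose in the drinking water. Fed mice (0 h of fasting) were killed at clock hour 13 after 4 h of feeding. The fasted mice lost food and sucrose at that hour and were killed after 8 h (clock hour 21) or 24 h (clock hour 13 again). The 8 h groups thus also differed in time of day from both the fed and the 24 h groups, in every comparison with 8 h. The 2 zones and 3 states gave 6 groups of 3 libraries. No label says that the libraries of a group came from separate mice, so the p-values measure the spread between these libraries, which may be partly technical.

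NRF2, the protein made from Nfe2l2, is a transcription factor that KEAP1 holds in the cytoplasm and hands to a ubiquitin ligase. Oxidants and electrophiles modify KEAP1, and NRF2 then builds up, pairs with small MAF proteins and binds antioxidant response elements near genes that make glutathione, reduce thioredoxin and supply NADPH. In liver this programme is known for protecting hepatocytes against reactive drug products, many of which are made by cytochrome P450 enzymes of the pericentral zone. NADPH made in the pentose phosphate pathway is used both to reduce glutathione and thioredoxin and to make fatty acids after a meal.

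The promoters were searched for the letters of the antioxidant response element core, because that element is what the listed target genes are known to share. RefSeq promoter windows of 300 bases (250 before and 50 after an annotated start, build GRCm38.p6, the assembly behind mm10) were given for 8 members, in 11 windows, and none was given for Gclc or Gsr. The motif TGACNNNGC, or GCNNNGTCA on the other strand, was found in 6 of the 11 windows, 1 in each of 6 members. Of all 32851 windows, 12.4% held it. Each line below gives the match in capitals with 10 bases on either side, read 5′ to 3′ on the gene's own strand.
Nfe2l2: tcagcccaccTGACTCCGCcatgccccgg
Gclm: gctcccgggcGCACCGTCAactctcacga
Txnrd1: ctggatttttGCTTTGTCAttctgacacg
Srxn1: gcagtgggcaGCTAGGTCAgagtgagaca
G6pdx: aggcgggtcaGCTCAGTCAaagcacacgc
Pgd: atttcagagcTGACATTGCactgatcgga
The Nfe2l2 stretch lies at chr2:75704885-75704913 (minus strand), the Gclm stretch at chr3:122245413-122245441 (plus strand) and the Txnrd1 stretch at chr10:82859104-82859132 (plus strand). The Srxn1 stretch lies at chr2:152105542-152105570 (plus strand), the G6pdx stretch at chrX:74428919-74428947 (minus strand) and the Pgd stretch at chr4:149166061-149166089 (minus strand). The first letter of the match lay 240 bases before the annotated start in Nfe2l2, 134 before it in Gclm, 92 before it in Txnrd1 and 57 before it in G6pdx. In Srxn1 and Pgd it lay after the start. Each distance is from the annotated start of the window that held the match. For Txnrd1 this was window 2, inside the gene, which begins at chr10:82833951, and windows 1 and 3 held 0 matches. For Pgd it was also window 2, inside the gene, which begins on the minus strand at chr4:149166771, and window 1 held 0 matches. None of the 6 stretches held the AP-1 letters TGACTCA or TGAGTCA, which can overlap such an element. A match is a string of letters and no measure of binding. The windows of Keap1 and Nqo1 held no match, and sequence outside the windows was not searched for any gene.

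Library totals ranged from 18400000 to 26400000 estimated counts. Levels are given as CPM, counts scaled by TMM to a common library size, and they compare libraries, not genes of different length. The 5 general hepatocyte markers summed to 54462 to 95065 CPM in pericentral and 107349 to 180258 CPM in periportal libraries. Alb, 1 of them, had group means of 47948 to 66589 CPM in pericentral and 105925 to 134335 CPM in periportal groups. The 7 markers of pericentral hepatocytes summed to 9456 to 18580 CPM in the pericentral libraries and to 422 to 2050 CPM in the periportal ones. The 7 periportal markers did not overlap between zones within a state, at 3105 to 3786 against 8398 to 10474 CPM when fed, 4842 to 5944 against 9572 to 16920 CPM at 8 h and 9136 to 9525 against 14941 to 15662 CPM at 24 h, pericentral first. Marker sums of sinusoidal endothelial cells (3.11 to 33.7 CPM), Kupffer cells and leukocytes (0.646 to 20.4 CPM) and stellate cells (0.696 to 15.3 CPM) were low, and each had a higher mean in the periportal group of every state. At 8 h the higher endothelial and stellate means came from periportal replicate 3 (33.7 and 15.3 CPM). The periportal medians there (7.02 and 1.33 CPM) were below the pericentral ones (7.39 and 1.63 CPM). That replicate also had the highest Nqo1 of the 18 libraries (15.2 CPM). The 6 cholangiocyte markers summed to 19.3 to 37.6 CPM in pericentral and 32.8 to 56.7 CPM in periportal libraries, with Epcam at 0 in all 18 libraries. Pericentral 24 h replicate 2 stood apart with 111 CPM of the pericentral marker Glul against 928 and 707 CPM in replicates 1 and 3. Its periportal markers Sds (215 against 101 and 94.8 CPM) and Cyp2f2 (793 against 345 and 322 CPM) were higher. The pericentral marker Cyp2e1 was at 10266 CPM there, against 12998 and 16062 CPM. Periportal 8 h replicate 1 was low in Sds (222 against 629 and 710 CPM) and in the periportal marker sum (9572 against 16920 and 15795 CPM). Periportal fed replicate 3 was low in Pgd and G6pdx. The part of these other cells and of these libraries in the results was not tested beyond the values given without each library. In such bulk samples fewer cells of a type and less RNA per cell cannot be told apart.

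**Figure D1:**
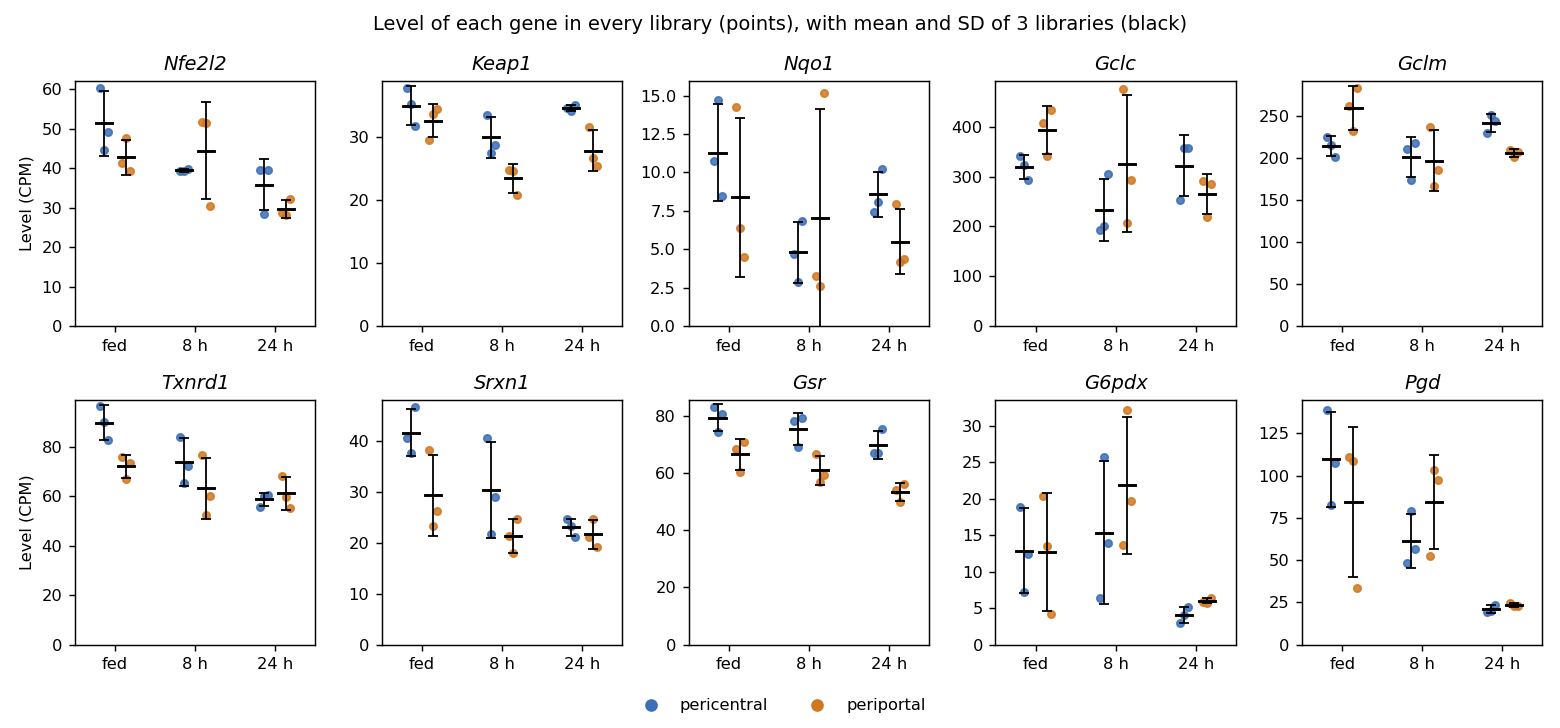
Level of each of the 10 genes in every library, in CPM on a linear axis from 0, by feeding state and zone; points are the 3 libraries of a group and the bars their mean and SD. Pgd and G6pdx have their lowest means at 24 h in both zones, and Gsr is lower in periportal than in pericentral libraries in each state.

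Fasting was first followed within each zone. With edgeR at an adjusted p under 0.05, 4 of the 10 genes were called in pericentral hepatocytes between 24 h and fed (Pgd, Srxn1, Txnrd1 and Nfe2l2), where 21.8% of all genes tested were called. In periportal hepatocytes 3 of the 10 were called between 24 h and fed (Pgd, Gsr and Nfe2l2), where 19.6% of all genes were called. At 8 h against fed the pericentral count was 0, with 4 genes at an unadjusted p under 0.05 and 13.8% of all genes called, and DESeq2 and limma-voom also called 0. The periportal count at 8 h was 2 (Keap1 and Gclm), with 14.4% of all genes called. Between 24 h and 8 h only Pgd was called, in both zones, where 9.71% (pericentral) and 7.46% (periportal) of all genes were called. Every one of these calls was a fall. The members' median log2 change from fed to 24 h was -0.46 in pericentral and -0.48 in periportal hepatocytes, against medians within 0.01 of 0 over all genes tested. The comparisons with fed share the same fed libraries, so they are not independent of each other.

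Pgd (ENSMUSG00000028961, chr4:149149991-149166771, mm10) encodes 6-phosphogluconate dehydrogenase, which makes the second NADPH of the pentose phosphate pathway. Its level in fed pericentral libraries was 139, 82.8 and 107 CPM in replicates 1 to 3. It was 48.3, 79.0 and 56.6 CPM at 8 h, then 19.5, 19.7 and 23.6 CPM at 24 h. The 3 pericentral states did not overlap, with every 24 h library at less than any 8 h library and every 8 h library at less than any fed one. The log2 change from fed to 24 h was -2.39 (SE 0.39, edgeR adjusted p 0.000792), which leaves 0.191 of the fed level. From 8 h to 24 h it was -1.55 (SE 0.39, edgeR adjusted p 0.023). From fed to 8 h the change of -0.84 (SE 0.37) was not called (edgeR adjusted p 0.166).

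In periportal libraries Pgd was at 111, 109 and 33.2 CPM when fed, at 52.5, 103 and 97.3 CPM at 8 h, then 24.8, 22.7 and 22.9 CPM at 24 h. Fed and 8 h overlapped fully and had like means, 84.4 ± 44.3 and 84.3 ± 27.7 CPM (SD, n = 3 each), while the 24 h libraries were below all the others. The fall from fed to 24 h was -1.85 on the log2 scale (SE 0.39, edgeR adjusted p 0.00449), and that from 8 h to 24 h was -1.85 (SE 0.39, edgeR adjusted p 0.013). Without periportal fed replicate 3, the low library, the change of Pgd from fed to 24 h was -2.24 (edgeR adjusted p 0.0001). When only these groups were fitted it was -1.84 and was not called (adjusted p 0.0632). The call of Pgd from 8 h to 24 h was lost without periportal 24 h replicate 2 (adjusted p 0.0589), and in pericentral cells without 8 h replicate 2 (0.0789), without 24 h replicates 1, 2 or 3 (0.0619, 0.0778 and 0.0649) and with no filter on low counts (0.0505).

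G6pdx (ENSMUSG00000031400, chrX:74409483-74429194, mm10) encodes glucose-6-phosphate dehydrogenase, the entry enzyme of the same pathway and the source of its first NADPH. In pericentral libraries it was at 18.9, 7.25 and 12.5 CPM when fed, 6.39, 25.8 and 13.9 CPM at 8 h, then 2.97, 4.12 and 5.19 CPM at 24 h. In periportal libraries it was at 20.3, 13.6 and 4.22 CPM when fed, 13.6, 32.2 and 19.8 CPM at 8 h, then 5.87, 5.74 and 6.44 CPM at 24 h. The 24 h libraries lay below every 8 h library of their zone, and in pericentral cells below every fed library as well, while fed and 8 h libraries overlapped. The replicate spread was wide: the SD over the mean had a median of 44.3% over the 6 groups.

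No contrast of G6pdx was called by edgeR. The changes to 24 h were -1.66 (SE 0.59, edgeR adjusted p 0.0606) from pericentral fed, -1.91 (SE 0.59, edgeR adjusted p 0.0603) from pericentral 8 h and -1.86 (SE 0.58, edgeR adjusted p 0.0698) from periportal 8 h. DESeq2 called these 3 changes of G6pdx, with adjusted p-values of 0.0229, 0.0128 and 0.0162. From periportal fed to 24 h the change was -1.08 (SE 0.58, edgeR adjusted p 0.225), and -1.50 without the low periportal fed replicate 3 (adjusted p 0.0717) but -0.56 without fed replicate 1 (0.624). The near-identical gene G6pd2 reached at most 1 count in any library. Ikbkg overlaps G6pdx on the opposite strand, and the use of strand in counting is not stated. Ikbkg had group means of 61.1 to 84.2 CPM, was called in no contrast and had a Pearson r of 0.02 with G6pdx over the 18 libraries.

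**Figure D2:**
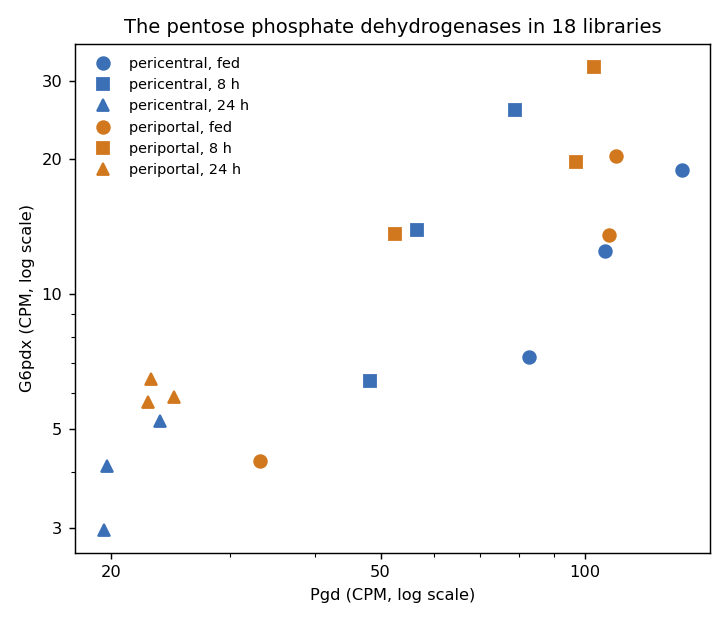
Level of Pgd against level of G6pdx in each of the 18 libraries, in CPM on log axes, with a colour for each zone and a symbol for each state. The 24 h libraries are low in both genes, and the highest levels of both are in fed and 8 h libraries. The states overlap in G6pdx: pericentral 8 h replicate 1 (6.39 CPM) is below periportal 24 h replicate 3 (6.44 CPM). Periportal fed replicate 3 (33.2 CPM of Pgd, 4.22 CPM of G6pdx) lies near the 24 h libraries.

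Both NADPH genes varied together from library to library. The Pearson r of log2 CPM of G6pdx and Pgd was 0.85 over the 18 libraries and 0.90 after the group means were removed. In periportal fed replicate 3 both were low, and in 8 h replicate 2 of each zone G6pdx was at its highest of that group and Pgd too. These points share library, scaling and state, so r is a description of 18 libraries. By the same measure over all genes with a mean of at least 10 CPM, the genes most like Pgd were Hcn3 (r 0.95), Pklr (0.94), which encodes the liver pyruvate kinase of glycolysis, and Acss2 (0.94), an acetyl-CoA synthetase. Those most like G6pdx were Cyb5r3 (0.93), Acsl5 (0.91) and Gcat (0.90).

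Of the 17 other genes of NADPH supply, 5 were called from fed to 24 h in pericentral cells and 4 in periportal cells, all lower, where 21.8% and 19.6% of all genes were called. Their median log2 change was -0.22 and -0.08. Me1, the cytosolic malic enzyme, changed by -2.50 (SE 0.35, edgeR adjusted p 0.00016) in pericentral and -1.66 (SE 0.34, edgeR adjusted p 0.00317) in periportal cells. Rpia, the ribose-5-phosphate isomerase of the pentose phosphate pathway, changed by -2.23 and -2.02 (edgeR adjusted p 0.000438 and 0.0011). Rpia was also called at 8 h, at -2.30 and -1.49 (edgeR adjusted p 0.000468 and 0.00893, the second lost under 3 of 26 alternatives). Idh1, the cytosolic NADPH-making isocitrate dehydrogenase, fell by 0.47 and 0.64 on the log2 scale, and Shmt1 of folate metabolism by 0.46 and 0.75. In the other direction H6pd, which makes NADPH by a like reaction inside the endoplasmic reticulum, went from 310 ± 12.4 to 626 ± 134 CPM at 8 h in pericentral cells (SD, n = 3 each). The log2 change of H6pd was 1.02 there and 0.94 in periportal cells (edgeR adjusted p 0.000419 and 0.000893), at the clock hour that differs from the fed one.

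Txnrd1 (ENSMUSG00000020250, chr10:82833951-82897712, mm10) encodes the cytosolic thioredoxin reductase, which uses NADPH. In pericentral libraries it was at 96.6, 90.1 and 82.6 CPM when fed, 84.1, 65.3 and 72.1 CPM at 8 h, then 55.7, 60.0 and 60.4 CPM at 24 h. All 24 h libraries were below all 8 h and fed libraries, and fed and 8 h overlapped in part. The log2 change from fed to 24 h was -0.61 (SE 0.13, edgeR adjusted p 0.00268), to 0.654 of the fed level, and it was called under every alternative run. Periportal Txnrd1 was at 75.8, 67.0 and 73.4 CPM when fed and at 68.3, 59.7 and 55.4 CPM at 24 h, which overlapped, and its change of -0.24 (SE 0.13) was not called (edgeR adjusted p 0.216).

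Srxn1 (ENSMUSG00000032802, chr2:152105516-152111376, mm10) encodes sulfiredoxin, which repairs over-oxidised peroxiredoxins. Pericentral libraries had 40.6, 37.6 and 46.6 CPM when fed, 40.4, 21.7 and 29.0 CPM at 8 h, then 24.6, 23.2 and 21.2 CPM at 24 h. Fed and 24 h did not overlap, and the 8 h libraries spread over both ranges. The change from fed to 24 h was -0.86 (SE 0.21, edgeR adjusted p 0.00767), to 0.553 of the fed level, and was called under every alternative run. In periportal libraries Srxn1 was at 38.3, 23.3 and 26.2 CPM when fed and at 21.1, 24.6 and 19.1 CPM at 24 h, with an uncalled change of -0.44 (SE 0.21, edgeR adjusted p 0.161). The zone difference in the change from fed to 24 h was 0.37 (SE 0.18, edgeR adjusted p 0.652) for Txnrd1 and 0.42 (SE 0.29, edgeR adjusted p 0.793) for Srxn1, so the call in one zone and not in the other is not a difference between zones by this test. Txnrd1 and Srxn1 had an r of 0.82 over the 18 libraries, and the gene most like each of them was the same, Ube2l3 (r 0.88 with both), a ubiquitin-conjugating enzyme.

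Nqo1 (ENSMUSG00000003849, chr8:107388225-107403206, mm10), a quinone reductase often read as a sign of NRF2 activity, was low and uneven. It ranged from 2.58 to 15.2 CPM over the 18 libraries, and both ends were periportal 8 h libraries. Its pericentral libraries were at 10.8, 14.7 and 8.45 CPM when fed and at 4.71, 2.88 and 6.84 CPM at 8 h, which did not overlap, with a log2 change of -1.22 (SE 0.60) that was not called (edgeR adjusted p 0.214). No contrast of Nqo1 was called. The interval of 2 SE on either side of this change ran from -2.42 to -0.02. Its edgeR unadjusted p was 0.0613, so an interval without 0 is not a result under 0.05 here. The genes most like it were Pir (r 0.83) and Ftl1 (0.83), both on the list of other NRF2 targets, and Tmem220 (0.80).

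Among 13 other genes of the thioredoxin and peroxiredoxin system, 5 were called from fed to 24 h in pericentral cells (4 higher, 1 lower) and 2 in periportal cells (both higher), where 21.8% and 19.6% of all genes were called. Sesn2, a stress-induced regulator of mTORC1, rose in both zones, from 3.98 ± 0.592 to 15 ± 4.57 CPM in pericentral cells and, in periportal cells, from 4.61 ± 0.599 to 18.9 ± 0.555 CPM (SD, n = 3 each). The rise of Sesn2 was 1.91 and 2.03 on the log2 scale (edgeR adjusted p 1.15e-05 and 7.94e-06). Txnip, which binds thioredoxin, rose by 1.87 in each zone (edgeR adjusted p 0.0367 and 0.0398, lost under 6 and 12 of 26 alternatives), and Txnrd3, a relative of Txnrd1, by 0.97 in pericentral cells (edgeR adjusted p 0.00235).

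Nfe2l2 (ENSMUSG00000015839, chr2:75675513-75704641, mm10), the gene of NRF2 itself, was lower at 24 h in both zones by a margin close to the threshold. Pericentral libraries had 60.5, 44.5 and 49.1 CPM when fed, 39.3, 39.2 and 39.9 CPM at 8 h, then 39.5, 28.5 and 39.5 CPM at 24 h. Periportal libraries had 41.3, 47.7 and 39.3 CPM when fed, 51.6, 51.4 and 30.3 CPM at 8 h, then 28.7, 28.1 and 32.2 CPM at 24 h. In each zone fed and 24 h did not overlap, and periportal 8 h spanned both. The log2 changes from fed to 24 h were -0.52 (SE 0.18, edgeR adjusted p 0.0436) and -0.53 (SE 0.18, edgeR adjusted p 0.0469). Both were lost with the replicate block (adjusted p 0.0521 and 0.0541) and with no filter on low counts (0.0559 and 0.0619). The pericentral call was lost without any 1 of 11 libraries (pericentral fed 1 or 3, any at 8 h, 24 h 2 or 3, periportal fed 1 or any at 24 h). The periportal call was lost without any 1 of 12 (any periportal fed or 24 h library, pericentral fed 3, any at 8 h, 24 h 1 or 3) and under limma-voom (adjusted p 0.0579). The pericentral adjusted p of Nfe2l2 reached 0.181 without fed replicate 1 and 0.174 without 24 h replicate 2, with a change of -0.39 and -0.38, and the periportal one reached 0.153 without fed replicate 2 and 0.133 without 24 h replicate 2.

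Keap1 (ENSMUSG00000003308, chr9:21229730-21239361, mm10), the inhibitor, was called from fed to 8 h in periportal cells. It was at 29.5, 33.7 and 34.5 CPM when fed, 24.8, 24.6 and 20.8 CPM at 8 h, then 31.5, 26.6 and 25.4 CPM at 24 h. All 8 h libraries were below all fed and all 24 h libraries. The log2 change was -0.48 (SE 0.11, edgeR adjusted p 0.00825), called under every alternative run, and the return of 0.25 from 8 h to 24 h (SE 0.11) was not called (edgeR adjusted p 0.199). Pericentral Keap1 went from 34.9 ± 3.06 CPM when fed through 29.9 ± 3.22 CPM at 8 h to 34.5 ± 0.456 CPM at 24 h (SD, n = 3 each), with no call. The zone difference in the change to 8 h was -0.25 (SE 0.16, edgeR adjusted p 0.972).

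Of the 10 other regulators of NRF2, 4 were called from fed to 24 h in each zone, all higher, where 10.8% of all genes were called higher in pericentral and 9.59% in periportal cells. The list's median change was 0.32 in pericentral and 0.24 in periportal cells. Maff, a small MAF partner, rose from 2.80 ± 0.574 to 11.2 ± 5.10 CPM in pericentral cells and, in periportal cells, from 2.60 ± 0.305 to 11.3 ± 7.12 CPM (SD, n = 3 each). The log2 changes of Maff were 1.99 and 2.12 (edgeR adjusted p 0.00309 and 0.00247). Bach1, a repressor that competes with NRF2 for its elements, rose from 32.6 ± 2.91 to 62.8 ± 6.86 CPM in pericentral cells (SD, n = 3 each), a change of 0.94 (SE 0.14, edgeR adjusted p 0.000133). Mafk was higher by 0.50 and 0.39, and Cul3, the scaffold of the ligase that KEAP1 serves, by 0.38 and 0.28. The periportal calls of Mafk, Cul3 and Nfe2l1 (0.38) were lost under 7, 6 and 6 of 26 alternatives, and every other call in this paragraph held under all 26.

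Gclc (ENSMUSG00000032350, chr9:77754535-77794485, mm10) and Gclm (ENSMUSG00000028124, chr3:122245557-122270732, mm10) encode the catalytic and the modifier subunit of glutamate-cysteine ligase, the rate-limiting enzyme of glutathione synthesis. Pericentral Gclm was at 226, 216 and 202 CPM when fed, 211, 175 and 219 CPM at 8 h, then 230, 251 and 245 CPM at 24 h. Periportal Gclm was at 263, 233 and 284 CPM when fed, 237, 167 and 186 CPM at 8 h, then 209, 201 and 208 CPM at 24 h. Every fed periportal library was thus above every fed pericentral one, and at 24 h every periportal library was below every pericentral one. From fed to 8 h the periportal change was -0.40 (SE 0.12, edgeR adjusted p 0.0369). This call of Gclm was lost without periportal fed replicates 1 or 3 (adjusted p 0.102 and 0.132), without 8 h replicates 2 or 3 (0.17 and 0.122), when only these groups were fitted (0.144) and with no filter on low counts (0.0533).

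Gclc had a wider spread, from 194 to 477 CPM over the 18 libraries. Its group means were 320 ± 23.9, 233 ± 62.6 and 322 ± 60.7 CPM in pericentral and 394 ± 48.4, 326 ± 138 and 266 ± 39.8 CPM in periportal libraries at fed, 8 h and 24 h (SD, n = 3 each). The 3 periportal fed libraries of Gclc (341 to 435 CPM) lay above the 3 at 24 h (220 to 292 CPM), with a change of -0.57 (SE 0.25) that was not called (edgeR adjusted p 0.126). The subunits varied together, with an r of 0.79 between Gclc and Gclm over the 18 libraries and 0.85 after group means were removed, and Gclm was the third most alike of all genes to Gclc. Gclc at 8 h had its extremes in both zones: 477 CPM in periportal replicate 1, and 194 CPM in pericentral replicate 1.

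Gsr (ENSMUSG00000031584, chr8:33652523-33698163, mm10) encodes glutathione reductase, which returns oxidised glutathione to its reduced form with NADPH. Periportal Gsr was at 68.3, 60.5 and 70.9 CPM when fed, 66.6, 56.9 and 59.4 CPM at 8 h, then 54.0, 49.8 and 56.3 CPM at 24 h. The 24 h libraries lay below those of both other states. The log2 change from fed to 24 h was -0.32 (SE 0.09, edgeR adjusted p 0.0242). It did not hold in a fit of these groups alone (adjusted p 0.0592), nor without periportal fed replicates 1 or 3 or 24 h replicate 2 (0.0808, 0.0861 and 0.0995). In pericentral libraries Gsr was at 83.2, 74.3 and 80.8 CPM when fed and at 67.2, 67.0 and 75.6 CPM at 24 h, with an uncalled change of -0.18 (SE 0.09, edgeR adjusted p 0.172).

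Of 13 other genes that make, use or break down glutathione, 5 were called from fed to 24 h in each zone, 4 higher and 1 lower, where 21.8% (pericentral) and 19.6% (periportal) of all genes were called. Gss, the glutathione synthetase that follows glutamate-cysteine ligase, was lower at 8 h in both zones, from 71.5 ± 11.7 to 45.3 ± 5.91 CPM in pericentral cells and, in periportal cells, from 124 ± 7.37 to 63.7 ± 8.21 CPM (SD, n = 3 each). The log2 changes of Gss were -0.66 and -0.96 (edgeR adjusted p 0.00695 and 0.000487). Glrx, glutaredoxin, rose by 0.53 and 0.79 at 24 h (edgeR adjusted p 0.0298 and 0.00313). Oplah, which returns oxoproline to glutamate, rose by 0.72 and 0.66 (edgeR adjusted p 0.00107 and 0.00218). Chac1, which breaks glutathione down, was low in pericentral cells, at 1.12 ± 0.448 CPM when fed, 4.16 ± 2.27 CPM at 8 h and 3.12 ± 1.20 CPM at 24 h (SD, n = 3 each). It rose by 1.88 at 8 h and 1.48 at 24 h on the log2 scale (edgeR adjusted p 0.0184 and 0.0448, lost under 3 and 12 of 26 alternatives). The pericentral call of Glrx at 24 h was lost under 5 of 26 alternatives. That of Ggct, the 1 lower gene there (-0.51), was lost under 17, and that of Slc25a39 (0.26) under 11. Of the 5 pericentral calls only that of Oplah held under all 26. The median change of the list was 0.19 in pericentral cells and close to 0 in periportal cells.

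**Figure D3:**
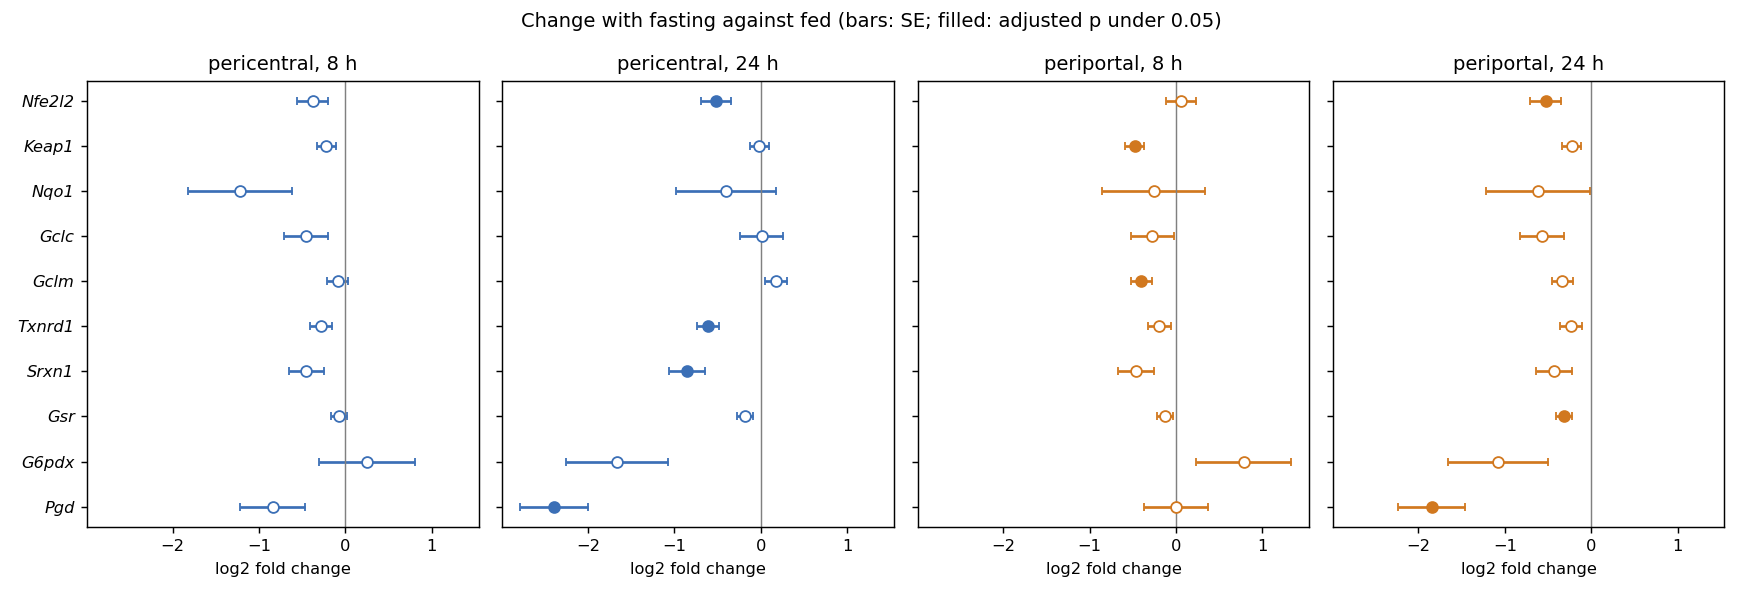
Log2 change of each of the 10 genes against fed at 8 h and at 24 h, by zone, with bars of 1 SE on either side of the edgeR estimate; filled points passed an adjusted p under 0.05. The 24 h change of Pgd is the largest of the 10 in both zones (-2.39 and -1.85).

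The zones were then compared within each state. Averaged over the states, 3 of the 10 genes were called, Gsr, Keap1 and Srxn1, each lower in periportal cells, where 20.3% of all genes tested were called. In fed mice 0 were called by edgeR, with 4 at an unadjusted p under 0.05 and 8.01% of all genes called, and DESeq2 and limma-voom called 0. At 8 h edgeR called 0, with 3 at an unadjusted p under 0.05 and 7.14% of all genes called, limma-voom 0 and DESeq2 2. At 24 h only Gsr was called, where 4.17% of all genes were called.

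Gsr was lower in periportal cells in each state, and the zones did not overlap in any of them. Pericentral libraries had 83.2, 74.3 and 80.8 CPM when fed, 78.1, 69.2 and 79.4 CPM at 8 h, then 67.2, 67.0 and 75.6 CPM at 24 h, against the periportal values above. The log2 difference averaged over the states was -0.32 (SE 0.05, edgeR adjusted p 0.000371), so the periportal level was 0.802 of the pericentral one. By state it was -0.26 (SE 0.09, edgeR adjusted p 0.112) when fed, -0.31 (SE 0.09, edgeR adjusted p 0.055) at 8 h and -0.39 (SE 0.09, edgeR adjusted p 0.0238) at 24 h. The averaged difference was called under every alternative, also without pericentral 24 h replicate 2 (-0.33, adjusted p 0.000592). The 24 h call of Gsr did not hold in a fit of these 2 groups alone (adjusted p 0.0702), nor without replicate 3 of the pericentral (0.116) or replicates 1 or 2 of the periportal 24 h group (0.0523 and 0.121).

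Keap1 was lower in periportal cells by 0.26 on average (log2 difference -0.26, SE 0.06, edgeR adjusted p 0.00813), called under every alternative. Its pericentral libraries had 33.5, 27.4 and 28.7 CPM at 8 h, then 34.5, 34.1 and 35.0 CPM at 24 h. They lay above all periportal libraries of the same state, with differences of -0.35 (SE 0.11, edgeR adjusted p 0.0647) and -0.31 (SE 0.11, edgeR adjusted p 0.137), while the fed libraries overlapped.

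Srxn1 had an averaged difference of -0.37 (SE 0.12, edgeR adjusted p 0.038), with -0.51 when fed, -0.51 at 8 h and -0.09 at 24 h, none of these 3 called. The zones overlapped in every state. The averaged call of Srxn1 was kept under 15 of 27 alternatives. It was lost with no filter on low counts (adjusted p 0.0509) and without any 1 of 11 libraries: pericentral fed 1 or 3, 8 h 1 or 24 h 1 or 2, and periportal fed 2 or 3, 8 h 1 or 2 or 24 h 1 or 3. It had differences of -0.29 to -0.45 over all libraries left out in turn and adjusted p-values up to 0.0771.

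**Figure D4:**
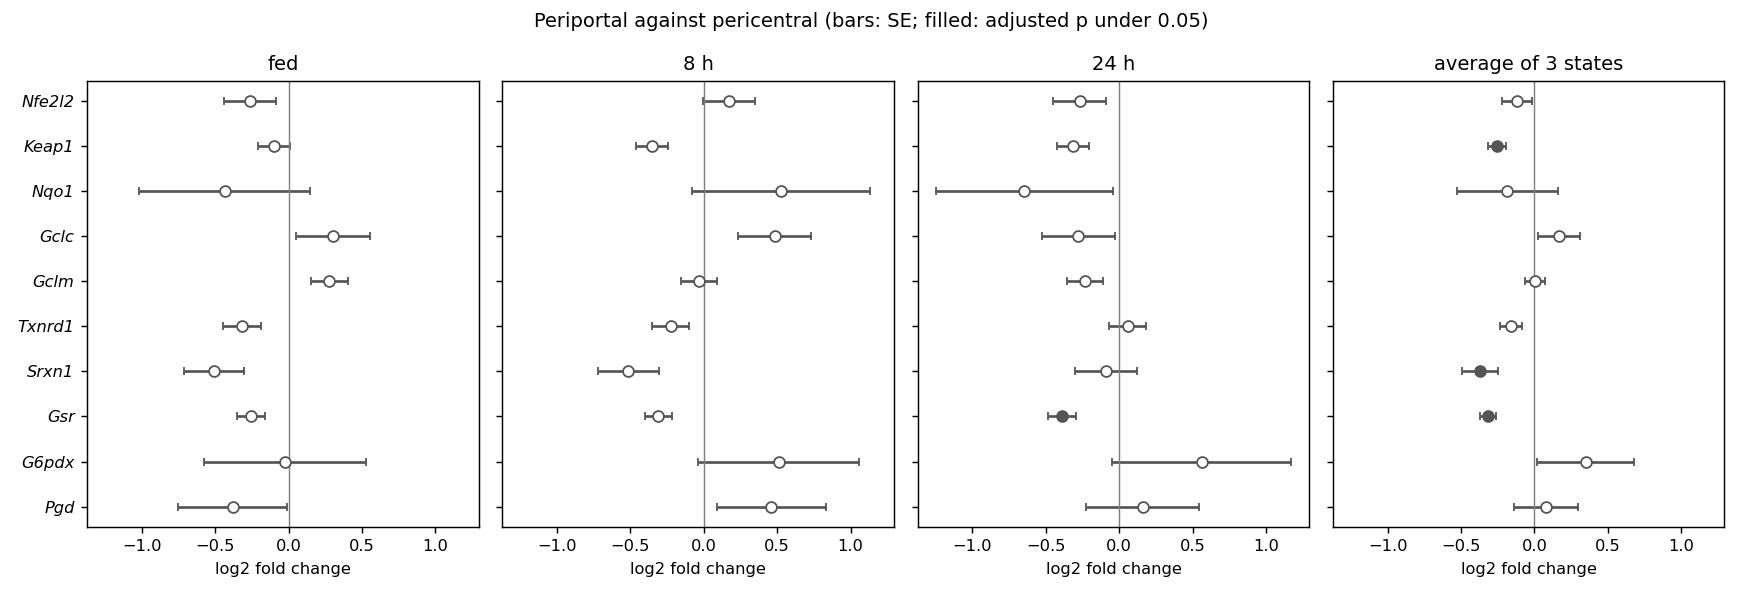
Log2 difference of periportal minus pericentral level of each of the 10 genes in the fed, 8 h and 24 h states and averaged over them, with bars of 1 SE on either side of the edgeR estimate; filled points passed an adjusted p under 0.05. Gsr lies to the negative side in each state (-0.26, -0.31 and -0.39), while Gclm goes from 0.28 when fed to -0.23 at 24 h, neither of them called.

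Whether fasting moved the zones differently was tested as the periportal change minus the pericentral change. Of the 10 genes 0 were called by edgeR in the changes fed to 8 h, fed to 24 h and 8 h to 24 h, with 0, 1 and 1 at an unadjusted p under 0.05, and DESeq2 and limma-voom called 0 each time. Of all genes tested, 0%, 0.016% and 0% were called. The smallest unadjusted p among the members was that of Gclm from fed to 24 h, with a difference of -0.51 (SE 0.17, p 0.00929, edgeR adjusted p 0.486): it was higher at 24 h than fed in 3 of 3 pericentral libraries and lower in 3 of 3 periportal ones. Gclc from 8 h to 24 h had a difference of -0.76 (SE 0.35, unadjusted p 0.0461, edgeR adjusted p 0.829). For Pgd the difference from fed to 24 h was 0.54 with an interval of 2 SE from -0.53 to 1.61, and for G6pdx 0.59 with an interval from -1.06 to 2.23, which spans 0 in both genes.

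Beyond the 10 genes, 7 of 15 other NRF2 targets differed between zones on average, all lower in periportal cells, where 20.3% of all genes were called and 9.96% were called lower. The median was -0.43 over the list against 0.00 over all genes. Blvrb, the biliverdin reductase B of heme breakdown, was at 133 ± 16.7 CPM in fed pericentral cells against 36.4 ± 5.21 CPM in fed periportal ones (SD, n = 3 each), and its averaged difference was -1.68 (SE 0.11, edgeR adjusted p 3.18e-08). Aox1, an aldehyde oxidase, differed by -0.78 (edgeR adjusted p 0.0101) and Ugdh, which makes UDP-glucuronate, by -0.62 (edgeR adjusted p 0.000405). The transporter gene Abcc4 differed by -2.67 (edgeR adjusted p 0.0269), a call lost under 7 of 27 alternatives, and those of Abcc3 (-0.50) and Pir (-0.43) were lost under 8 and 9. From fed to 24 h fewer of these targets were called, 1 of 15 in pericentral and 2 of 15 in periportal cells, all lower, against the 21.8% and 19.6% of all genes. Ugdh changed by -0.57 and -1.12 (edgeR adjusted p 0.0327 and 0.000509, the first lost under 4 of 26 alternatives). Osgin1 changed by -1.68 in periportal cells (edgeR adjusted p 0.027, lost under 6 of 26). The list's median change was -0.16 in pericentral and -0.31 in periportal cells. In the thioredoxin and peroxiredoxin list 5 of 13 were called between zones on average, 4 lower and 1 higher in periportal cells. Prdx3, Prdx6, Prdx1 and Txn1 differed by -0.39, -0.35, -0.34 and -0.29, and Prdx4, the peroxiredoxin of the endoplasmic reticulum, by 0.50. In the glutathione list 1 of 13 was called, Gss, 0.51 higher in periportal cells (SE 0.09, edgeR adjusted p 0.000383). Of the 17 other NADPH genes 4 were called, a share near the 20.3% of all genes. Idh1, Nadk2 and Idh2 were lower by 0.35, 0.35 and 0.32 (log2 differences -0.35, -0.35 and -0.32), and Aldh1l1 of folate metabolism was 0.53 higher. Of 4 genes that remove superoxide and peroxide, Sod1 differed by -0.33 (edgeR adjusted p 0.00111) and Sod3 by 1.11, a call lost under 20 of 27 alternatives (edgeR adjusted p 0.0493).

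**Figure D5:**
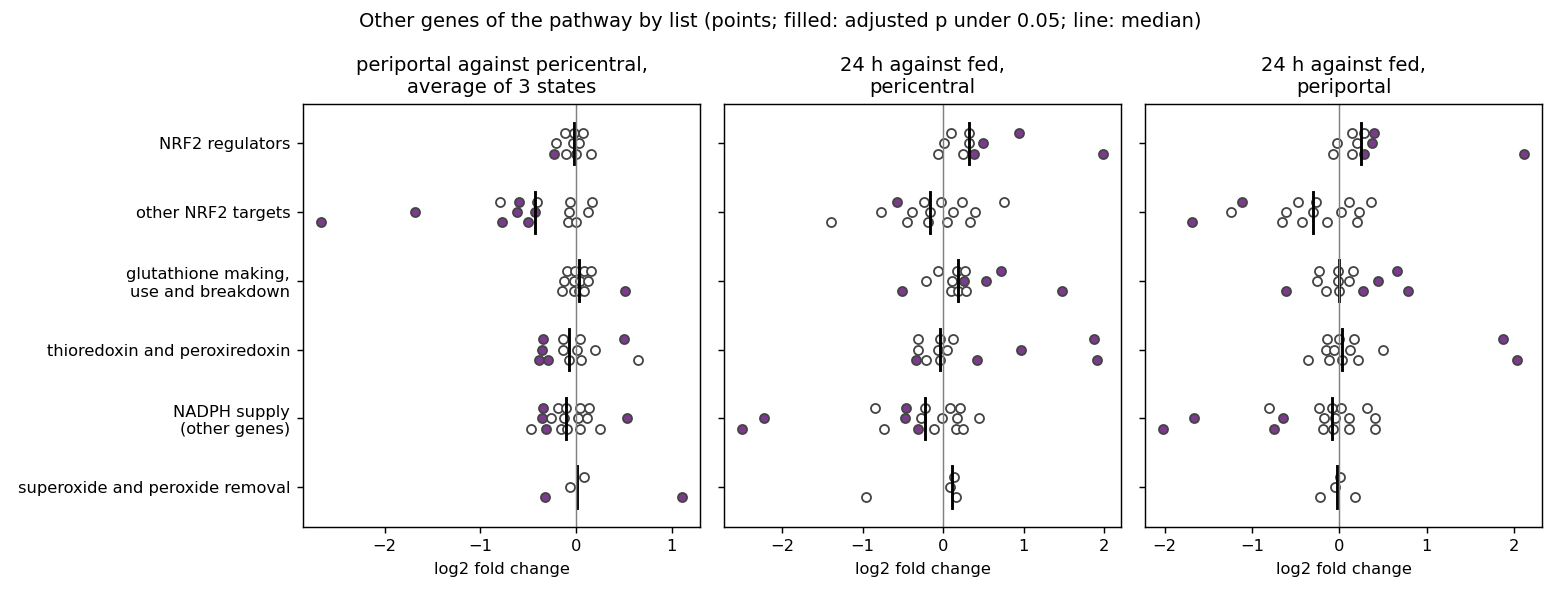
Log2 difference of periportal against pericentral cells averaged over states, and log2 change from fed to 24 h in each zone, for each tested gene of the pathway lists; points are genes, filled where the adjusted p was under 0.05, and the lines are list medians. The other NRF2 targets have 7 genes lower in periportal cells and 0 higher, and the NRF2 regulators have 4 higher and 0 lower at 24 h in each zone.

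Across the 6 groups, the order of levels was therefore not the same for all members. Of the 10, 7 had their highest group mean in fed pericentral libraries (Nfe2l2, Keap1, Nqo1, Txnrd1, Srxn1, Gsr and Pgd). Gclc and Gclm had it in fed periportal libraries, and G6pdx in periportal 8 h ones. The share of all genes with their highest mean in a given group was not worked out. For Keap1 the fed pericentral mean (34.9 CPM) was close to that of pericentral 24 h (34.5 CPM), and Nqo1 was called in no contrast. The highest group mean was 5.34 times the lowest for G6pdx and 5.23 times for Pgd, and 1.32 (Gclm) to 2.35 (Nqo1) times for the other members. These orders rank group means and were not tested as orders. No contrast compared 2 groups that differ in both zone and state. Of the 130 tests of the members (10 genes, 13 contrasts), 15 were called. Over all genes tested the share called ran from 0% to 21.8% by contrast. A share over all 13 contrasts together was not worked out, so the total of 15 is only a count.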

How the data were processed

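RNA sequencing gave 18 libraries in 6 groups of 3, taken from the labels. The deposited values are the authors' estimated counts for each gene, not normalised, with kallisto 0.46.0 and build mm10 named in the submitters' processing notes. How transcripts were summed to genes, the annotation and the use of strand are not given in the sources used here. Counts were rounded to whole numbers; 67.5% to 70.5% of the deposited values were whole. Of 28030 identifiers 27566 had a symbol, and positions are those of GENCODE on mm10. Totals of 18400000 to 26400000 counts and 3 libraries a group set the precision.

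The main test was glmQLFTest of edgeR 4.0.16 after filterByExpr, TMM and a robust glmQLFit, run in R 4.3.3 as 1 fit of all libraries with no covariates and 13 contrasts. Benjamini-Hochberg adjustment ran over 12477 genes, with calls under 0.05; SE is the log2 change divided by the square root of F. For correlations, log2 CPM had 2 as prior count. The script was tested on simulated data. DESeq2 1.42.0, limma 3.58.1 and the settings named in the closing section were alternatives.

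All 10 members were named, up to 4 called genes of largest change from each pathway list in a contrast, and the 3 genes most alike to a member. The members and lists were chosen with earlier results of these data known. Of 75 listed pathway genes 72 were tested; Slc7a11, Gpx2 and Ggt1 did not pass the filter. Same-numbered libraries were checked for pairing by the correlation of their deviations from group means: over 15 pairs of groups r ran from -0.12 to 0.21, and only the zones at 24 h had every r over 0.1. There the replicate block changed no call of a member. No pair of replicates looked like 1 library deposited again.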

Additional observations from a re-analysis of the deposited data

How the results depend on the processing

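Of 130 log2 changes, 54 were recomputed under 9 settings that kept all libraries and 18 that left out 1 library. These 54 were called in some setting, had an unadjusted p under 0.05 in the main fit, or were other values printed here. In all, 0 of 1428 values changed sign, but this choice favoured changes away from 0, so that count is no test of stability. As for calls, 1329 values kept their side of the threshold, 61 lost a call and 38 gained one. No setting that kept all libraries moved the median over all genes by more than 0.0205. The averaged zone differences of Gsr and Keap1, the periportal fall of Keap1 at 8 h and the pericentral falls of Txnrd1, Srxn1 and Pgd at 24 h were called under every setting.

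Counts of the 10 genes called moved as follows. Between zones in fed mice 1 was called with the replicate block (Gsr, adjusted p 0.0391) and 0 to 1 with 1 library left out. Of all 12477 genes tested, 1036 were called there with the block and 1000 in the main fit. Between zones at 8 h 1 was called with a filter at a mean of 1 CPM, with the replicate block, with scaling without the 20 most abundant genes and with the replicate block within state (chosen after seeing the data), 2 with the DESeq2 Wald test and 0 to 2 with 1 library left out. Over all genes these settings called, in that order, 870 of 10488, 959, 897 and 984 of 12477, and 1258 of 13713. The main fit called 891 of 12477. Between zones at 24 h 0 were called with only the groups of the contrast and 0 to 1 with 1 library left out. There 388 of 11606 genes were called with only the groups and 520 of 12477 in the main fit. Between 24 h and 8 h in pericentral cells 0 were called with no filter beyond a summed count of 1, 2 with DESeq2 and 0 to 2 with 1 library left out. Over all genes 886 of 20481 were called with no filter, 1584 of 12130 with DESeq2 and 1212 of 12477 in the main fit. In periportal cells between 24 h and 8 h 2 were called with a filter at a mean of 1 CPM, 2 with only the groups of the contrast, 3 with DESeq2 and 0 to 2 with 1 library left out. Over all genes these 3 settings called 1032 of 10488, 413 of 11602 and 1378 of 10946, and the main fit 931 of 12477. From fed to 8 h in periportal cells 1 was called with no filter, 1 with only the groups of the contrast and 1 to 2 with 1 library left out, and 0 to 1 in pericentral cells. Over all genes in periportal cells 1503 of 20481 were called with no filter, 1234 of 11707 with only the groups and 1798 of 12477 in the main fit. From fed to 24 h the pericentral count of 4 became 3 with no filter and with the replicate block and 5 with only the groups and with DESeq2, and the periportal count of 3 became 2 with no filter, only the groups, the replicate block and limma-voom and 4 with DESeq2. Over all genes the pericentral settings called 2281 of 20481, 2760 of 12477, 2298 of 11658 and 3002 of 12920. The periportal ones called 2002 of 20481, 2193 of 11738, 2505 and 2396 of 12477, and 2728 of 13316. The leave-one-out counts from fed to 24 h were 3 to 5 in pericentral and 1 to 5 in periportal cells, and 2 to 3 for the averaged zone difference. Over all genes these counts were 1905 to 2864, 1512 to 2545 and 2190 to 2790. The zone differences in the changes stayed at 0 throughout. The causes of these moves were not tested. The replicate block also ended the calls of Nfe2l2 at 24 h (adjusted p 0.0521 and 0.0541). With 3 libraries a group, a difference that missed the threshold is not shown to be absent.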
